A study of Mus musculus with 18 samples.

Results

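The genes described are 8 matrix metalloproteinases (MMPs), Mmp2, Mmp3, Mmp8, Mmp9, Mmp12, Mmp13, Mmp14 and Mmp19, and 2 of their tissue inhibitors (TIMPs), Timp1 and Timp2. They were taken by gene symbol, 10 of the 34745 rows of the gene table, and 9 of them were among the 14241 genes that passed a filter on low counts. Mmp3 did not pass. RNA was sequenced from mouse bone marrow-derived macrophages (BMDMs) cultured with M-CSF, the growth factor that keeps these cells alive, and then with RANKL, the cytokine that turns them into osteoclasts. All 6 groups received M-CSF, for 3 days before RANKL per the series' design text. The groups were the labels KO (global Zmat1 knockout mice on a C57BL/6 background) and WT (wild-type littermates), each without RANKL (day 0) and after 1 or 3 days of it, with 3 libraries in each group. The knockout is carried by every cell of the mouse, so a KO label does not single out the osteoclast lineage. Neither the number of mice nor whether libraries of a group came from separate cultures is given, so p-values measure the spread between these libraries, which may be technical.

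The 18 libraries held 13789775 to 17559958 counts. Zmat1, the gene named in the labels, was not lower under the KO label. Its mean was 5.13 ± 2.18, 5.27 ± 1.21 and 5.04 ± 0.54 CPM (counts scaled to a common library size; SD, n = 3) on days 0, 1 and 3 under the KO label, and 4.35 ± 2.74, 3.99 ± 0.43 and 3.26 ± 1.30 CPM under the WT label, with adjusted p of 0.93, 0.82 and 0.62. Gene-level counts do not show whether these reads lie in the deleted part of the gene, so they do not check the labels, and the libraries are called by their label throughout. Titles of 5 libraries, all from days 0 and 1, are written with a double hyphen, and the labels do not say what that marks. Of the 3 WT day 1 libraries, both a single-hyphen and a double-hyphen title are numbered 1, and none is numbered 3.

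MMPs are zinc-dependent proteases that cut collagens and other matrix proteins outside the cell. They are made as inactive precursors, and TIMPs bind the active enzymes and block them. Mmp2 and Mmp9 are gelatinases, Mmp8 and Mmp13 collagenases, Mmp3 a stromelysin and Mmp12 the macrophage elastase, while Mmp14 is anchored in the membrane, where together with Timp2 it can activate the Mmp2 precursor. In bone, osteoclasts are known for Mmp9 and Mmp14, fibroblasts and cells of the osteoblast lineage for Mmp2, Mmp13, Mmp14 and Timp1, and neutrophils for Mmp8 and Mmp9 stored in their granules. In bulk libraries such as these, fewer cells of a type and less RNA per cell cannot be told apart.

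On GRCm38, the build of the deposited files, Mmp13 (ENSMUSG00000050578, chr9:7272514-7283333), Mmp12 (ENSMUSG00000049723, chr9:7344381-7369499), Mmp3 (ENSMUSG00000043613, chr9:7445822-7455972) and Mmp8 (ENSMUSG00000005800, chr9:7558429-7568486) lie in 1 cluster of 296 kb, all on the + strand. Mmp9 (ENSMUSG00000017737) is at chr2:164940780-164955850, Mmp2 (ENSMUSG00000031740) at chr8:92827328-92853417, Mmp14 (ENSMUSG00000000957) at chr14:54431612-54441265 and Mmp19 (ENSMUSG00000025355) at chr10:128790953-128800824, all on the + strand. Timp1 (ENSMUSG00000001131) is at chrX:20870166-20874735 on the + strand, overlapping Syn1 on the other strand, and Timp2 (ENSMUSG00000017466) at chr11:118301069-118355740 on the - strand. Whether counting used strand is not given in the sources used here. Reads of Timp1 and Syn1 (88 to 460 counts a library, against 65 to 6688 for Timp1) and of Mmp19 and the opposite-strand Tmem198b (183 to 546 counts, against 601 to 2757 for Mmp19) may therefore be mixed.

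The start regions of the 4 clustered genes are shown because these neighbours had unlike levels in the same bulk libraries. RefSeq promoters on GRCm38.p6 (250 bases before to 50 after a start) were matched for 7 of the 10 members, with 8 promoters in all. They were searched on both strands for TGANTCA, the sequence that AP-1 factors bind, which 7.81% of all 32851 promoters of that length held. It was found in 3 of the 8, in Mmp13, Mmp3 and the downstream of the 2 Mmp12 starts, beginning 35, 46 and 44 bases before the start. The last 150 bases of those windows are given 5′ to 3′ with the match in capitals, and beside them those of the Mmp8 window, where these letters were not found.
Mmp13, chr9:7272414-7272563, + strand: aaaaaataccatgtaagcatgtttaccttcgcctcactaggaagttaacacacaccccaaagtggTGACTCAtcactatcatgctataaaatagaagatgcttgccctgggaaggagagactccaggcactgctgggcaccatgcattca
Mmp12, chr9:7347274-7347423, + strand: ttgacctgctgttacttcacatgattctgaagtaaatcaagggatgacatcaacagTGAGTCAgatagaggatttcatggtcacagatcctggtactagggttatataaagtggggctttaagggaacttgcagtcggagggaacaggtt
Mmp3, chr9:7445722-7445871, + strand: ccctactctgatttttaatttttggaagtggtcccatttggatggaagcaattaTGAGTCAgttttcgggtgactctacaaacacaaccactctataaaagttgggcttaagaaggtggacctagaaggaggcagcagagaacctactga
Mmp8, chr9:7558329-7558478, + strand: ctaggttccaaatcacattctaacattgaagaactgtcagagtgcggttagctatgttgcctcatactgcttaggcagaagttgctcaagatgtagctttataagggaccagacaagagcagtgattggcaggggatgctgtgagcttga
A match describes these letters only and is not a measured binding site. Of these neighbours Mmp13 passed as higher on day 3 of RANKL under the KO label only, a call that was lost without certain single libraries. Mmp8 fell under both labels, Mmp12 passed in no comparison and Mmp3 was close to 0. Whether the sequence bears on these levels was not tested.

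Levels were compared between genes in FPKM, which divides reads by transcript length. On day 0, Timp2 had the highest FPKM of the 10 members, 154 ± 29.1 under the WT label and 163 ± 30.0 under the KO label, above the next member in 3 of 3 libraries of each. Behind it the order was unsettled. Timp1 (34.99 ± 43.9), Mmp9 (28.8 ± 17.0) and Mmp8 (25.6 ± 4.64 FPKM) followed under the WT label, and neither neighbouring pair kept its order in all 3 libraries. After 3 days of RANKL, Mmp9 stood first in all 6 libraries, at 2429 ± 755 FPKM under the WT label and 1465 ± 681 under the KO label. Mmp14, Timp1 and Timp2 came next under the WT label, at 157 ± 29.6, 153 ± 25.9 and 153 ± 18.1 FPKM, and did not differ beyond their spread. Mmp3 was last in every group.

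The sum over the MMP members was 61.2 to 149 FPKM on day 0 and 2008 to 3553 FPKM on day 3 under the WT label. The corresponding KO sums were 132 to 313 and 1074 to 2592 FPKM. Mmp9 made up 90.4% ± 1.35 of that sum on day 3 under the WT label and 79.6% ± 4.56 under the KO label, against 25.5% ± 5.86 and 35.7% ± 11.8 on day 0. The sum of both TIMPs moved less, from 189 ± 44.5 to 305 ± 43.5 FPKM under the WT label and from 220 ± 9.91 to 413 ± 51.2 under the KO label. The ratio of MMP to TIMP transcripts was 0.56 ± 0.12 on day 0 and 8.93 ± 3.21 on day 3 under the WT label, and 1.00 ± 0.39 and 4.44 ± 1.82 under the KO label. Without Mmp9 it was 0.42 ± 0.086 and 0.83 ± 0.16 under the WT label, and 0.61 ± 0.15 and 0.85 ± 0.21 under the KO label, where the days overlapped. These are sums of transcripts and not of active enzyme, and they were not tested. FPKM does not carry the TMM scaling of the CPM values, so the size of a change between days depends on the unit. Timp2 under the KO label went from 163 to 180 FPKM, but from 724 to 645 CPM.

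**Figure D1:**
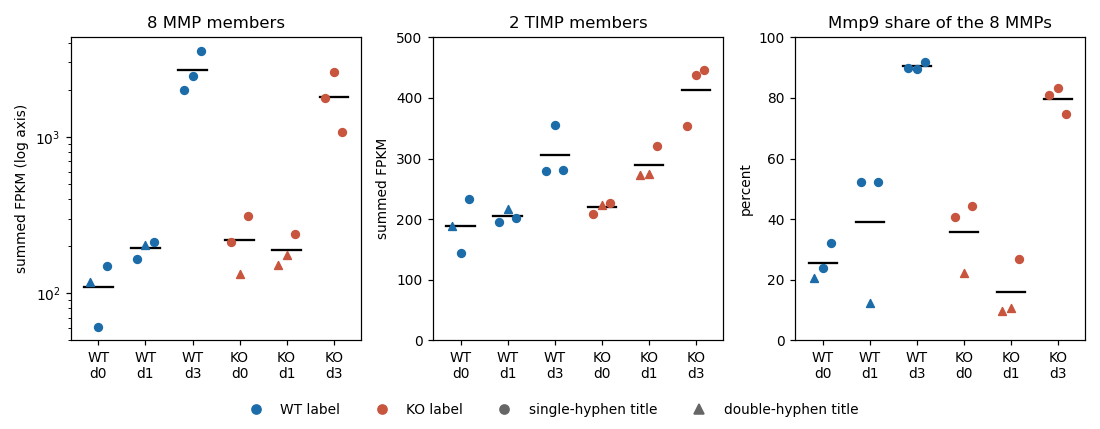
Summed FPKM of the 8 MMP members (log axis), summed FPKM of the 2 TIMP members and the percent of the MMP sum that was Mmp9, with 1 point per library (triangles, double-hyphen titles) and a line at the mean of 3 libraries. The day 3 libraries reach 1074 to 3553 FPKM of MMPs, of which Mmp9 makes up 74.5% to 92.0%.

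RANKL for 3 days against none was compared with edgeR's quasi-likelihood test and Benjamini-Hochberg adjustment over all tested genes. Under the WT label 5 of the 9 tested members passed at an adjusted p under 0.05, with Mmp2, Mmp9 and Mmp14 higher and Mmp8 and Mmp19 lower. With the KO label 6 of 9 passed, the same 5 genes in the same directions and Mmp13, which was higher. The background was wide, since 50.2% of all tested genes passed under the WT label and 42.5% under the KO label. The median log2 fold change of the tested members was 0.58 and 1.78, beside -0.03 and -0.01 over all tested genes. All day 3 libraries have single-hyphen titles, so style and day are partly confounded. Without the 5 double-hyphen libraries 5 and 6 members passed. In the KO libraries Mmp13 was then no longer among them (log2 fold change 2.11, adjusted p = 0.095) and Timp1 was (1.51, adjusted p = 0.046).

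**Figure D2:**
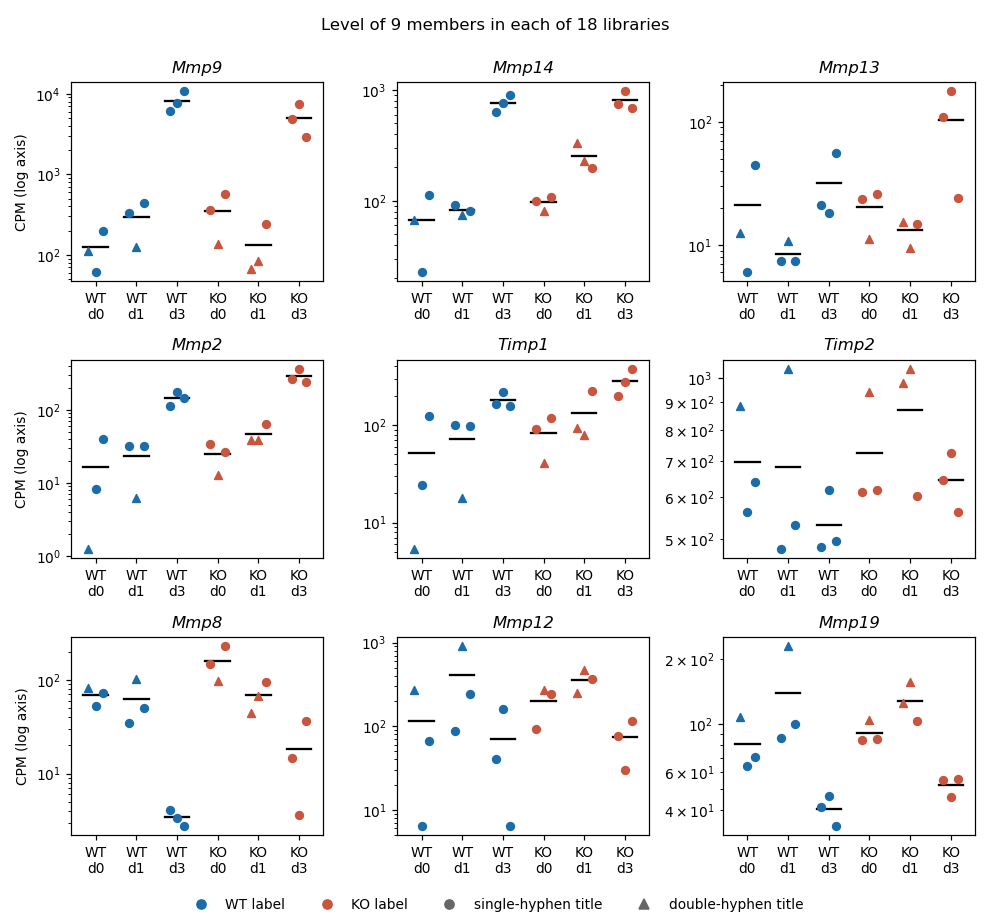
CPM (log axes) of the 9 tested members in each of the 18 libraries, by label (colour) and day of RANKL, with the title style as the point shape and a line at the group mean. Mmp9 and Mmp14 on day 3 lie above every day 0 and day 1 library, Mmp8 on day 3 under the WT label (2.75 to 4.08 CPM) below all of them.

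Mmp9, the gelatinase that osteoclasts make in large amounts, had 112, 61.4 and 198 CPM in the 3 WT day 0 libraries and 6076, 7613 and 10700 CPM in the WT day 3 libraries. In the KO libraries it had 356, 135 and 566 CPM on day 0 and 4822, 7368 and 2906 CPM on day 3. The days did not overlap under either label. Mmp9 rose by 6.04 on the log2 scale under the WT label (SE 0.77, 95% interval 4.38 to 7.69, adjusted p = 4.1e-05) and by 3.84 under the KO label (SE 0.70, interval 2.35 to 5.33, adjusted p = 0.00079). The difference between both rises was -2.20 (SE 0.89) with an adjusted p of 0.91 and an unadjusted p of 0.026, so it did not pass. On day 1 it had 334, 124 and 437 CPM under the WT label, where the value of 124 belongs to the double-hyphen library, and 66.4, 84.1 and 243 CPM under the KO label, and neither day 1 group passed against day 0 (adjusted p = 0.27 and 0.48).

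Markers of osteoclasts and of neutrophils were set beside Mmp9. The 12 osteoclast markers, which include Ctsk (cathepsin K) and Acp5 (tartrate-resistant acid phosphatase), summed to 11520 to 14400 CPM on WT day 3 and 6411 to 11770 CPM on KO day 3, against 1640 to 2319 and 1702 to 2250 CPM on day 0. All 12 were above the floor of 3 counts in a library of each day 3 group, and 2 were at or under it throughout each day 0 group. Per 1000 CPM of these markers Mmp9 had 643 ± 109 CPM on WT day 3 and 547 ± 87.4 on KO day 3. These ranges overlap, and the day 0 values were 68.1 ± 46.0 and 189 ± 121. The sum is a coarse measure, since Tcirg1 of this list had a mean of 1205 CPM on WT day 0 and 1057 CPM on WT day 3. Of the 12 markers 9 passed as higher on day 3 under each label, and 1 as lower under the KO label. Their median log2 fold change was 6.58 under the WT and 5 under the KO label, above that of Mmp9. The ratio, in contrast, was higher on day 3 than on day 0 without overlap. It was 527.5 to 743 against 35.3 to 121 CPM under the WT label, and 453 to 626 against 60.1 to 299 CPM under the KO label. Whether Mmp9 rose beyond the markers was not tested. The 14 neutrophil markers, such as Ltf (lactoferrin) and S100a8, summed to 744 to 3376 CPM on WT day 0 and 4072 to 13330 CPM on KO day 0. Among the 3 libraries of KO day 0 the order of Mmp9 was that of the neutrophil sum, highest in library 3 and lowest in library 2. The sum of the stromal markers described below had that order as well (4801, 1559 and 4921 CPM in libraries 1, 2 and 3). The osteoclast sum did not (1702, 2250 and 1893 CPM), but the mean log2 CPM of the osteoclast list did (3.44, 3.29 and 3.84). On day 3 the neutrophil sum was down to 41.9 to 78.5 CPM under the WT label and 116 to 1293 CPM under the KO label. Within KO day 3 its order was the reverse of that of Mmp9. On WT day 1 the library with the highest neutrophil sum (2374 CPM) had the lowest Mmp9 (124 CPM). By the mean log2 CPM of each list, the order of Mmp9 was that of the neutrophil list in 3 of the 6 groups. It was that of the osteoclast list in 4 and of the stromal list in 3. The part of either cell type in Mmp9 was not tested.

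Mmp14, the membrane-anchored collagenase and Mmp2 activator, had 67.8, 22.9 and 113 CPM on WT day 0 and 638, 769 and 903 CPM on WT day 3. The KO libraries had 100, 80.7 and 109 CPM on day 0 and 747, 969 and 694 CPM on day 3. It rose by 3.51 (SE 0.42, adjusted p = 2.6e-05) and 3.05 (SE 0.41, adjusted p = 0.00010) on the log2 scale, with no overlap. Without WT day 0 library 3 the WT value was 4.11. Mmp14 was the member with the clearest day 1 values. The KO day 1 libraries had 330, 231 and 198 CPM, above every day 0 library, while the WT day 1 libraries had 91.9, 74.5 and 81.6 CPM. Per 1000 CPM of osteoclast markers, Mmp14 stood at 126 ± 28.7 on KO day 1, 92.5 ± 13.8 on KO day 3 and 50.9 ± 13.0 on KO day 0, and at 43.7 ± 16.2, 61.5 ± 5.62 and 37.0 ± 28.5 on the same WT days. The KO day 1 values lay where the osteoclast sum, 1735 to 2213 CPM, was within the range of KO day 0. Per 1000 CPM of the stromal markers described below, Mmp14 stood at 50.2 ± 27.65 on KO day 1, 24.6 ± 4.96 on KO day 3 and 31.6 ± 17.45 on KO day 0. The values on the same WT days were 75.9 ± 89.6, 49.1 ± 8.79 and 171 ± 254. The part of either cell type in Mmp14 was not tested. Under both labels the rise of Mmp14 to day 3 was below the median of the osteoclast markers.

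Mmp2, the gelatinase of fibroblasts and stromal cells, had 1.24, 8.12 and 39.9 CPM on WT day 0 and 113, 173 and 148 CPM on WT day 3. The KO libraries had 33.9, 12.9 and 26.9 CPM on day 0 and 269, 367 and 242 CPM on day 3. It rose by 3.13 (SE 0.83, adjusted p = 0.0065) and 3.57 (SE 0.84, adjusted p = 0.0042). The WT value was 4.96 without WT day 0 library 3, which held the most Mmp2 of its group. On day 1 it had 32.4, 6.17 and 31.8 CPM with the WT label and 38.2, 38.7 and 64.9 CPM with the KO label, the 6.17 in the double-hyphen library. The double-hyphen libraries were the lowest for Mmp2 in all 4 groups that hold both title styles.

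Stromal genes had the same spread. The 21 stromal and osteoblast markers, which include Col1a1 (type I collagen), Pdgfra and Sp7 (osterix), summed to 146, 737 and 6260 CPM in the 3 WT day 0 libraries, in the order of their Mmp2, and to 14000 to 18050 CPM on WT day 3. They summed to 1559 to 4921 CPM on KO day 0 and 26110 to 36970 CPM on KO day 3. Among the 20 tested markers of this list 15 passed under the WT label and 19 under the KO label, all higher on day 3. Set against these sums Mmp2 was nearly level, with 8.62 ± 2.33, 10.9 ± 3.43 and 9.10 ± 0.92 CPM per 1000 stromal CPM on WT days 0, 1 and 3, and 6.94 ± 1.42, 8.24 ± 2.59 and 8.97 ± 2.01 on the same KO days. Every one of these groups overlapped its day 0 group. One marker of the list was at or under 3 counts in every library of 5 groups, and 2 were on WT day 1.

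**Figure D3:**
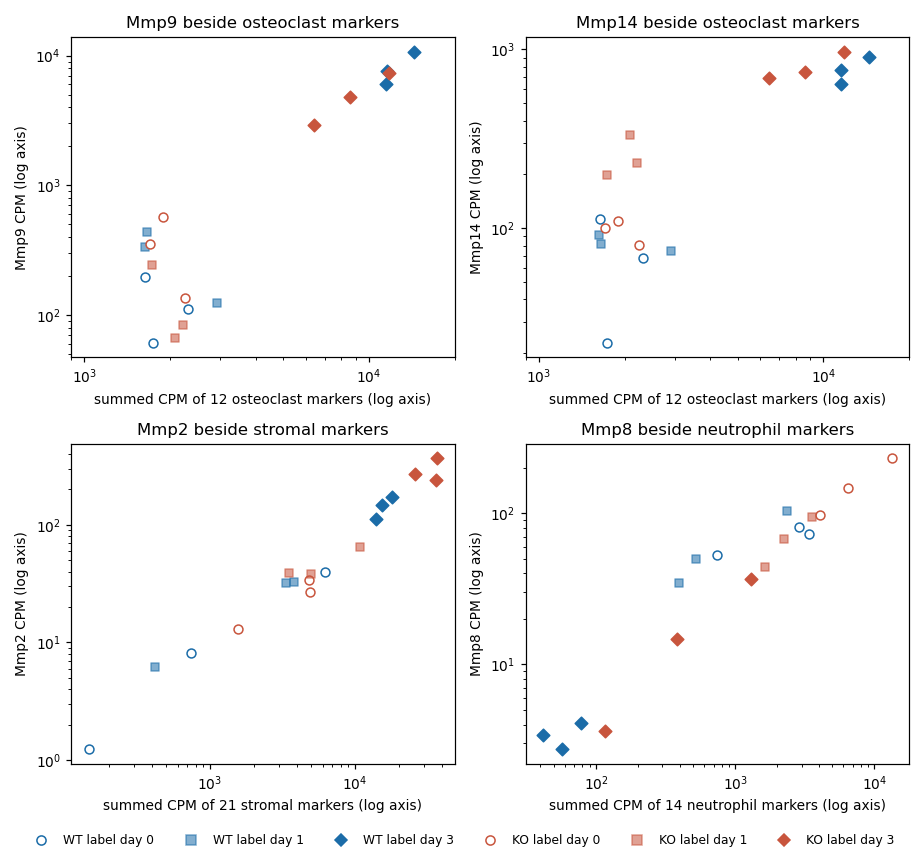
CPM of Mmp9 and Mmp14 against summed osteoclast markers, of Mmp2 against summed stromal markers and of Mmp8 against summed neutrophil markers, 1 point per library, all axes log (open circles day 0, squares day 1, diamonds day 3). Mmp2 and Mmp8 lie along a band through all 18 libraries, a wide one for Mmp8 (17.3 to 94.2 CPM per 1000 neutrophil CPM). Mmp9 is spread from 61.4 to 566 CPM at the low osteoclast sums of days 0 and 1.

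Timp1, the secreted inhibitor made by stromal cells among others, had 5.36, 24.5 and 124 CPM on WT day 0 and 166, 220 and 155 CPM on WT day 3. With the KO label it had 90.7, 41.2 and 117 CPM on day 0 and 199, 279 and 379 CPM on day 3. Day 1 values were 100, 17.99 and 98.2 CPM with the WT label and 93.8, 78.7 and 222 CPM with the KO label. Day 3 lay above day 0 without overlap under both labels, yet the test did not pass. The log2 fold change was 1.81 (SE 0.84, adjusted p = 0.085) under the WT label and 1.78 (SE 0.84, adjusted p = 0.098) under the KO label. Without WT day 0 library 3 the WT value passed (3.62, adjusted p = 0.0026), and so it did with title style as covariate (1.62, adjusted p = 0.019). The KO value passed in DESeq2 (1.83, adjusted p = 0.0499) and when only the groups compared were fitted (1.78, adjusted p = 0.013). Timp1 was lowest in the double-hyphen libraries of all 4 groups that hold both styles, as Mmp2 was. Per 1000 stromal CPM it stood at 29.9 ± 8.90 on WT day 0 and 11.4 ± 1.08 on WT day 3, and at 23.0 ± 3.83 and 8.53 ± 1.62 on the same KO days, with day 3 below day 0 in all libraries.

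Mmp13, the collagenase of osteoblasts and hypertrophic chondrocytes, had 12.5, 6.03 and 45.0 CPM on WT day 0 and 21.2, 18.1 and 55.6 CPM on WT day 3. The WT days overlapped, and the log2 fold change of 0.58 (SE 0.71, interval -0.93 to 2.08, adjusted p = 0.51) did not pass. It was 1.79 (adjusted p = 0.048) without WT day 0 library 3, and -0.11 without WT day 3 library 3. With the KO label Mmp13 had 23.8, 11.1 and 26.1 CPM on day 0 and 109, 177 and 24.1 CPM on day 3. The log2 fold change was 2.34 (SE 0.73, adjusted p = 0.020), though library 3 of day 3 lay within the day 0 range. The call was lost without KO day 3 library 2 (1.71, adjusted p = 0.094) and without KO day 0 library 2 (2.08, adjusted p = 0.072). On day 1 Mmp13 had 7.45, 10.7 and 7.37 CPM in the WT and 15.3, 9.45 and 14.9 CPM in the KO libraries. The stromal sum was nearly the same in KO day 3 libraries 2 and 3, 36970 and 36390 CPM, where Mmp13 differed from 177 to 24.1 CPM. The osteoclast sum was 11770 CPM in library 2 and 6411 CPM in library 3.

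Timp2, the inhibitor that also helps Mmp14 activate Mmp2, ranged from 480 to 1040 CPM over the 18 libraries and passed in no comparison. It had 887, 562 and 641 CPM on WT day 0, 480, 1039 and 531 CPM on WT day 1, 613, 941 and 618 CPM on KO day 0 and 976, 1040 and 602 CPM on KO day 1. On day 3 it had 485, 617 and 496 CPM under the WT label and 646, 725 and 563 CPM under the KO label. The log2 fold change against day 0 was -0.39 (SE 0.30, interval -1.02 to 0.25) under the WT label and -0.17 (SE 0.30, interval -0.80 to 0.47) under the KO label. The latter was 0.14 when total counts replaced the TMM scaling. Each of the 5 double-hyphen libraries held more Timp2 than every single-hyphen library of its group.

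Mmp8, the neutrophil collagenase, had 81.1, 53.2 and 73.1 CPM on WT day 0 and 4.08, 3.41 and 2.75 CPM on WT day 3. In the KO libraries it had 147, 96.6 and 231 CPM on day 0 and 14.7, 3.61 and 36.5 CPM on day 3. On day 1 it had 34.8, 103 and 49.7 CPM with the WT label and 44.0, 67.3 and 94.6 CPM with the KO label, above every day 3 library of its label. It fell by 4.34 on the log2 scale under the WT label (SE 0.69, adjusted p = 0.00019) and by 3.11 under the KO label (SE 0.63, adjusted p = 0.0017). The KO value was -4.11 without KO day 3 library 3. All 14 neutrophil markers were lower on day 3 and passed under both labels. In KO day 3 the order of Mmp8 was that of the neutrophil sum, which was 383, 116 and 1293 CPM in libraries 1, 2 and 3. Against that sum Mmp8 stood at 40.4 ± 27.1 CPM per 1000 on WT day 0 and 60.6 ± 18.2 on WT day 3, and 21.3 ± 3.47 and 32.6 ± 5.19 on the same KO days. The WT days overlapped on this scale and the KO days did not, with day 3 above day 0. Between labels the KO values were lower without overlap on day 1 (26.45 to 30.1 against 43.45 to 94.2) and on day 3 (28.25 to 38.4 against 48.4 to 81.5). The labels overlapped on day 0, and these ratios were not tested.

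Mmp12, the elastase of macrophages, varied widely within groups. It had 272, 6.34 and 66.0 CPM on WT day 0, 86.5, 914 and 241 CPM on WT day 1 and 40.5, 162 and 6.34 CPM on WT day 3. Values with the KO label were 92.6, 271 and 242 CPM on day 0, 246, 468 and 368 CPM on day 1 and 77.0, 29.6 and 116 CPM on day 3. The log2 fold change from day 0 to day 3 was -0.72 (SE 1.14, interval -3.15 to 1.71) under the WT label and -1.44 (SE 1.15, interval -3.91 to 1.02) under the KO label, and neither passed (adjusted p = 0.61 and 0.33). The WT value turned positive, to 1.01, without the 5 double-hyphen libraries. All 9 macrophage markers, such as Adgre1 and Mrc1, had lower estimates over the same days under each label, and 8 of them passed. Their sum went from 30430 to 58310 CPM on WT day 0 to 6349 to 13220 CPM on WT day 3.

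Mmp19, a widely made MMP, had 108, 64.0 and 70.6 CPM on WT day 0 and 41.4, 46.6 and 33.7 CPM on WT day 3. The KO libraries had 84.2, 104 and 85.4 CPM on day 0 and 55.4, 46.2 and 55.8 CPM on day 3. On day 1 the libraries had 86.2, 230 and 99.8 CPM with the WT label and 125, 157 and 104 CPM with the KO label. It fell by 0.99 under the WT label (SE 0.31, adjusted p = 0.016), with adjusted p of 0.095 without WT day 0 library 1 and 0.066 without WT day 3 library 3. In the KO libraries the log2 fold change of -0.80 (SE 0.31, adjusted p = 0.049) was at the edge of the threshold. It did not pass with the replicate number within each label as a block (-0.78, adjusted p = 0.064) or without any 1 of the 6 libraries compared (adjusted p from 0.076 to 0.15). It was lost as well with DESeq2 size factors, total counts, no filter or a stricter filter (-0.77 to -0.50, adjusted p from 0.056 to 0.098). Each double-hyphen library held more Mmp19 than every single-hyphen library of its group. Mmp19 fell further from day 1, by 1.77 under the WT label (SE 0.31, adjusted p = 0.0011) and by 1.29 under the KO label (SE 0.31, adjusted p = 0.0076). The former log2 fold change was -1.17 when the WT day 1 library with the double-hyphen title was left out.

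Mmp3, a stromelysin that activates other MMPs, had 2 counts in the double-hyphen WT day 1 library, 1 in KO day 3 library 1, 6 in KO day 3 library 3 and 0 in the other libraries. A count of 0 allows up to 3 counts, so only the value of 6 counts lay above that floor. It was not tested.

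**Figure D4:**
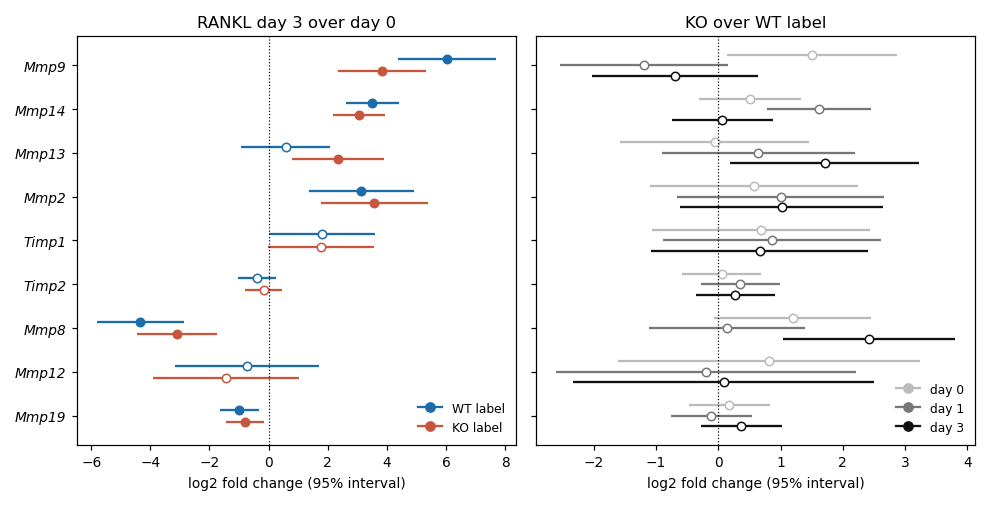
Log2 fold changes of the 9 tested members with 95% intervals, for day 3 of RANKL over day 0 under each label and for the KO over the WT label on each day (filled points passed at an adjusted p under 0.05). On the left 5 WT and 6 KO points are filled, and on the right none is.

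Between day 0 and day 1 no member passed under either label, where 2.35% of all genes passed under the WT label and 0.0211% under the KO label. At an unadjusted p under 0.05 there were 1 and 2 members, beside 20.5% and 10.2% of all genes. DESeq2 called 0 and 1 members, and 8.49% and 1.12% of the genes it tested. The 1 member was Mmp14 under the KO label, at a log2 fold change of 1.39 (SE 0.39, adjusted p = 0.25) in edgeR and an adjusted p of 0.043 in DESeq2. Most of the change fell between days 1 and 3, a comparison that shares its day 3 libraries with the one above. There 5 of 9 members passed under the WT label (background 32.0%) and 6 of 9 under the KO label (background 28.0%). They were the same genes as for day 3 against day 0. Mmp9 rose by 4.77 and 5.26, Mmp14 by 3.22 and 1.67 and Mmp2 by 2.62 and 2.63 under the WT and KO labels. Mmp8 fell by 4.19 and 1.91. Leaving out the double-hyphen WT day 1 library gave -3.60 for Mmp8, leaving out KO day 3 library 3 gave -2.91 for Mmp8 and leaving out KO day 1 library 3 gave 6.10 for Mmp9. Several calls were lost when 1 library was left out (adjusted p from 0.052 to 0.098). These were Mmp2 under the WT label (the double-hyphen day 1 library, day 3 library 2 or 3) and, under the KO label, Mmp2 (day 1 library 1 or 2, day 3 library 2), Mmp8 (day 1 library 2 or 3, day 3 library 1 or 2) and Mmp13 (day 3 library 2). With title style as covariate the KO calls of Mmp2 (1.36, adjusted p = 0.17) and Mmp8 (-1.89, adjusted p = 0.058) were lost as well, and that of Mmp8 also when only the groups compared were fitted (-1.90, adjusted p = 0.087). The KO count was 3 without KO day 3 library 2 and 2 without the double-hyphen libraries, which leaves a single KO day 1 library.

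The KO label was compared with the WT label within each day. No member passed on day 0, 1 or 3, where 0.119%, 0.112% and 0.140% of all tested genes passed. Before adjustment 1, 1 and 2 of the 9 members lay under 0.05, beside 7.59%, 7.90% and 10.7% of all tested genes. DESeq2 called 0, 1 and 1 members and 0.391%, 0.471% and 1.55% of the genes it tested. For the difference between labels in the response from day 0 to day 3, no gene of the table passed (0%), and Mmp9 was the 1 member under the unadjusted threshold, as were 5.40% of all genes.

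On day 3 the largest difference was that of Mmp8, higher under the KO label by 2.42 on the log2 scale (SE 0.65, interval 1.03 to 3.81, adjusted p = 0.24 in edgeR and 0.0085 in DESeq2). The groups overlapped, since KO library 2 had 3.61 CPM. Without KO library 3 the log2 fold change was 1.42. The 14 neutrophil markers were all higher under the KO label on that day, with a median log2 fold change of 3.35 and none past the adjusted threshold (12 at the unadjusted one). Mmp13 was next, at 1.71 (SE 0.71, adjusted p = 0.42). Mmp2 was 2.03-fold higher under the KO label without overlap, 242 to 367 against 113 to 173 CPM, with a log2 fold change of 1.02 (SE 0.77, adjusted p = 0.66). Of the 9 tested members Mmp2 was the 1 without overlap on that day. All 20 tested stromal markers were also higher under the KO label on day 3, with a median log2 fold change of 1.15, and none passed. Of these, 14 did not overlap between labels. The share of all genes without overlap was not counted, so neither this count nor that of the members is read as a label difference.

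Mmp9 on day 3 was at 0.62 times the WT level under the KO label, a log2 fold change of -0.69 (SE 0.63, interval -2.03 to 0.64, adjusted p = 0.72). The groups overlapped and the interval holds differences of up to 2.03 downward on the log2 scale. The 12 osteoclast markers all had lower estimates under the KO label on that day, with a median of -0.53 and none past the threshold. Mmp14 differed by 0.06 (SE 0.38, interval -0.75 to 0.87), and Timp1, Timp2, Mmp12 and Mmp19 by 0.66, 0.28, 0.09 and 0.37, all with intervals that include 0.

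On day 1 Mmp14 and Mmp2, 2 of the 9 tested members, did not overlap between labels, and neither did 12 of the 20 tested stromal markers. The share of all genes without overlap was not counted, so these counts are not read as a difference between labels. Mmp2 had 38.2 to 64.9 CPM in the KO and 6.17 to 32.4 CPM in the WT libraries, a log2 fold change of 1.00 (SE 0.78, interval -0.66 to 2.67, adjusted p = 0.76). Mmp14 was 3.06-fold higher under the KO label. Its log2 fold change was 1.61 (SE 0.39, interval 0.78 to 2.45), with an unadjusted p of 0.00092, an adjusted p of 0.30 in edgeR and 0.013 in DESeq2. Among single-hyphen titles alone, which leaves 1 KO library, it was 1.20 (adjusted p = 0.51). The stromal markers were all higher under the KO label on day 1 as well (20 of 20, median 1.35), with sums of 3493 to 10840 against 415 to 3832 CPM. Within KO day 1, library 3 had the highest stromal sum (10840 CPM) and the lowest Mmp14 (198 CPM). On day 0 Mmp9 was higher under the KO label by 1.51 (SE 0.64, adjusted p = 0.62) and Mmp8 by 1.19 (SE 0.59, adjusted p = 0.66). All 14 neutrophil markers had higher estimates there, with a median of 1.90. The part of either cell type in these differences was not tested. Of the remaining marker lists on day 3 against day 0, 6 of 7 B cell, 1 of 3 erythroid, 3 of 5 eosinophil and mast cell and 2 of 5 endothelial markers tested passed under the WT label, and 3, 1, 3 and 0 under the KO label, all lower on day 3. Their day 3 sums stayed at or under 106 CPM in every library. Between labels on day 3, B cell markers had higher KO estimates in 7 of 7 (median log2 fold change 3.01), endothelial markers in 5 of 5 (2.34), eosinophil and mast cell markers in 5 of 5 (1.75) and erythroid markers in 2 of 3 (0.04), with none past the threshold. The B cell, endothelial and eosinophil and mast cell lists thus stood beside Mmp8 and Mmp2 on that day as the neutrophil and stromal lists did. The erythroid list was nearly level, and the part of these lists was not tested.

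Other genes of the family and its regulators were taken from lists. Of 18 further MMP, TIMP and RECK genes 10 were tested. On day 3 against day 0, 4 of the 10 were higher and 2 lower under the WT label, and 5 higher and 2 lower under the KO label. Over all tested genes 50.2% and 42.5% passed. Timp3, the matrix-bound inhibitor, had 7.91 to 87.4 CPM on WT day 0 and 234 to 358 CPM on WT day 3, a log2 fold change of 3.13 (adjusted p = 0.0024). Mmp16 (2.65) and Mmp23 (2.67) rose as well. Mmp25, a membrane-anchored MMP of leukocytes, fell by 3.65 and Mmp27 fell by 2.57. Mmp27 lies next to Mmp8 in the chromosome 9 cluster, and had 46.6 to 63.8 CPM on WT day 0 and 7.35 to 10.9 CPM on WT day 3. The other genes of the cluster, Mmp1a, Mmp1b, Mmp7, Mmp10 and Mmp20, did not pass the filter on low counts. Of 20 activators, receptors and other regulators 16 were tested, of which 4 were higher and 0 lower under the WT label, and 5 higher and 1 lower under the KO label. The background was again 50.2% and 42.5%. Plat (tissue plasminogen activator) rose by 2.57 and Tfpi2, a protease inhibitor of the matrix, by 2.94 under the WT label. In the KO libraries Tfpi2 stood at 1.52 and did not pass (adjusted p = 0.061). For either list between labels, no gene passed on any day.

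The genes whose log2 CPM was most like each member over the 18 libraries were found by Pearson's r, which is a description since all members share the same libraries and groups. For Mmp2 they were Col16a1, Pcolce and Mxra8 (r = 0.99 or above), and for Timp1 Dzip1l, Lamb1 and Serpinh1 (0.99). For Mmp8 they were Pi16, Ltf and Sorl1 (0.98, 0.97 and 0.97), of which Ltf is on the neutrophil list. For Mmp9 they were Scin, Rufy4 and Ppif (0.98). For Mmp14 they were Gars, Irf2bpl and Ptgfrn (0.96), and for Mmp19 Ly9, Pld3 and Slamf8 (0.95 to 0.96). Mmp12 had Itgax, an integrin of dendritic cells and macrophages, first (0.93), Mmp13 had Prelp (0.91), a matrix proteoglycan, and Timp2 had Optn (0.93).

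Because days differ in most genes, the members were also set against the marker lists after the mean of each group was taken off. Over the 18 libraries in 6 groups, Mmp2 (r = 0.98) and Timp1 (r = 0.95) followed the stromal score, the mean log2 CPM of that list, and Mmp8 the neutrophil score (r = 0.87). Mmp13 stood nearer to the osteoclast score (r = 0.77) than to the stromal score (r = 0.52). Mmp9 had the same r with the osteoclast as with the stromal score (0.69), 0.12 with the neutrophil score and -0.69 with the macrophage score. Mmp14 had 0.52 with the osteoclast and 0.44 with the stromal score. Mmp19 had 0.68 with the macrophage and -0.68 with the stromal score, Mmp12 0.63 with the macrophage score and Timp2 -0.61 with the stromal score. The stromal score of double-hyphen libraries lay 1.31 log2 units below that of the single-hyphen ones within groups, and the osteoclast score 0.06 below. These values describe these libraries and were not tested.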

How the data were processed

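Processed files of 18 bulk RNA-seq libraries were used, 6 groups of 3 defined by the labels' genotype and RANKL day. The deposited table holds raw read counts per gene, made by the authors from reads on GRCm38 (GRCm38.p4/mm10 in the submitters' processing notes), and FPKM values made by the authors with StringTie and Ballgown; the aligner, counting program and strand setting are not given in the sources used here. Per the labels, RNA was taken with the RNeasy Mini Plus kit and libraries were made with the SMARTer mRNA-Seq kit. The study names a global knockout and a longer M-CSF culture than the 3 days of the design text. No column was without a sample.

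Counts of all 18 libraries entered 1 fit by group (R 4.3.3, edgeR 4.0.16: filterByExpr, TMM, quasi-likelihood test, Benjamini-Hochberg adjustment over 14241 genes, threshold 0.05). Every adjusted p in the text is from edgeR unless DESeq2 (1.42.0) is named. Intervals are 95% t intervals of that fit. CPM values use TMM library sizes. FPKM serves to compare levels between genes and for the sums over members, and does not carry the TMM scaling. A library with 3 counts or fewer is at the floor, which covers counting error only. Scripts were tested on simulated data. The members and all gene lists were chosen with earlier results of these data known. Beyond the members, the genes named are up to 5 in each direction with the largest log2 fold changes past the threshold among family and regulator genes on WT day 3 against day 0 (5 higher and 2 lower), and the 3 genes most like each member. In 59 cases a symbol stands on more than 1 line, and the macrophage marker Itgam was left out for that reason.

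Same-numbered libraries were checked for shared deviations from the group means. Within the KO label all 3 pairs exceeded r = 0.1 for day 3 with day 0 (0.13 to 0.40) and with day 1 (0.16 to 0.34). By that rule the number was treated as pairing there, from the data and not from the labels, but only in an alternative fit. These correlations are weak, and 2 of 3 KO day 3 libraries were most like their own number on day 0. The main fit holds no such block, so the KO calls of that fit are unpaired. Alternatives were DESeq2 size factors, total counts, no filter, a stricter filter (CPM of 5 in 3 libraries), the DESeq2 Wald test, title style as covariate, the replicate block, only the groups compared, the 2 WT day 1 libraries numbered 1 averaged, each library left out and, added after seeing the data, no double-hyphen libraries.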

Additional observations from a re-analysis of the deposited data

How the results depend on the processing

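The log2 fold changes of Mmp9, Mmp14, Mmp2 and Mmp8 for day 3 against day 0 kept their direction and their call under every alternative run. The number of members that passed moved by over 1.5 times in these cases. With DESeq2 it was 1 in place of 0 for day 1 against day 0 under the KO label, for KO against WT on day 1 and for KO against WT on day 3. With title style as covariate it was 1 in place of 0 for day 1 against day 0 under the WT label. For day 3 against day 1 under the KO label it was 2 without the 5 double-hyphen libraries, and 3 to 6 when 1 library was left out. Title style and the 5 libraries also turned Mmp12 on WT day 3 against day 0 to 0.33 and 1.01, and Timp2 under the KO label to 0.11 and 0.12 (0.14 with total counts). For KO against WT on day 1, Mmp12 turned to 0.11 with both libraries numbered 1 averaged and 1.17 without the 5 libraries, and Mmp19 to 0.073 and 0.16. The cause was not tested.

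With 1 library left out, the day 3 against day 0 log2 fold change ran from -2.29 to 0.98 for Mmp12 and from -0.11 to 1.79 for Mmp13 under the WT label, and from -0.26 to 0.091 for Timp2 under the KO label. Mmp14 on WT day 1 against day 0 ran from -0.12 to 0.87. For KO against WT on day 0 Mmp13 ran from -0.49 to 1.14 and Timp2 from -0.17 to 0.27. On day 1, leaving out any but the 2 WT libraries numbered 1, Mmp8 ran from -0.17 to 0.38, Mmp12 from -0.47 to 0.018 and Mmp19 from -0.30 to 0.019. Without the single-hyphen one of these 2 the values were -0.15, -0.68 and -0.36, and without the double-hyphen one 0.70, 1.13 and 0.46. On day 3 Mmp12 ran from -0.45 to 1.66 and Mmp14 from -0.095 to 0.19.

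By the same rule the numbers were not treated as pairing the libraries elsewhere, though some pairs correlated more strongly there. Pairs correlated from -0.39 to 0.32 between labels, from -0.066 to 0.11 for WT day 3 with day 0 or 1, from -0.46 to 0.60 for WT day 1 with day 0 and from 0.054 to 0.60 for KO day 1 with day 0. With the block Timp1 passed for WT day 3 against day 0 (2.80, adjusted p = 0.021) and Mmp2 did not for WT day 3 against day 1 (2.07, adjusted p = 0.069), while for KO against WT Mmp13 on day 0 turned to 0.13 and Mmp8 and Mmp19 on day 1 to -0.041 and 0.00073. Where the numbers were treated as pairing, the block changed no call other than that of Mmp19.

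Over all genes, DESeq2 called 59, 75 and 221 genes between labels on days 0, 1 and 3 against 17, 16 and 20, and 1176 and 164 for day 1 against 335 and 3, and 3 for the interaction against 0. Fitting only the groups compared gave 6, 3 and 158 between labels and 0 and 0 for day 1. Title style as covariate gave 31 and 51 between labels on days 1 and 3, and 1001 and 18 for day 1. Total counts gave 206 and 8 for day 1, no filter 126 under the WT label, averaging 565 and 12, and the block 0 and 0. Without the double-hyphen libraries, 1051 genes passed for WT day 1, and 606 against 3989 for KO day 3 against day 1. With 1 library left out, 0 to 1809 genes passed for WT day 1 and 0 to 13 for KO day 1, 15 to 196, 13 to 131 and 9 to 13 between labels on days 0, 1 and 3, and for day 3 against day 1 as few as 2842 and 2235 under the WT and KO labels. Total counts moved the median of all genes to 0.33 and 0.29 for day 3 against day 0 under the WT and KO labels. At these depths Mmp3 could not be compared, and 3 libraries a group leave intervals of the label differences that span several-fold changes.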
